A study of Mus musculus with 6 samples.

Results

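The genes described are 3 JAK kinases (Jak1, Jak2 and Tyk2) and 5 STAT transcription factors (Stat2, Stat3, Stat5a, Stat5b and Stat6), 8 genes of the 18193 that a probe set of the array names alone. They were taken by gene symbol, with every probe set that names 1 of them and no other gene, which gave 19 probe sets. Whole liver was collected 18 hours after a partial hepatectomy, the operation that removes most of the liver and sets off its regrowth. The Cre plus mice carried floxed Socs3 and a Cre transgene driven by the albumin promoter, which removes Socs3 in hepatocytes. Their controls, called Cre minus, were littermates with floxed Socs3 and no Cre. All mice were C57BL/6 and had the operation, and 3 arrays per group, lettered A, B and C, were hybridized with 2 ug of total RNA each. Ages were not given in the sources used here. No array came from an unoperated liver, and no control carried Cre alone, so neither an earlier difference between the livers nor any action of the recombinase can be told apart from the loss of Socs3. Values of a group are given in the order of arrays A, B and C throughout.

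JAKs are tyrosine kinases held on the inner side of cytokine receptors. When a cytokine such as IL-6, an interferon or growth hormone brings receptor chains together, the JAKs phosphorylate the receptor and then the STATs that dock on it, and the STATs pair up, enter the nucleus and switch on genes. STAT3 carries the IL-6 signal that starts the acute phase response and helps to prime hepatocytes for division after hepatectomy, and SOCS3 is its feedback brake. STAT2 serves type I interferons, STAT5A and STAT5B serve growth hormone, and STAT6 serves IL-4 and IL-13. Activity of all of these rests on phosphorylation, which an RNA array does not measure.

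Stat3, Stat5a and Stat5b lie side by side in the mouse genome, and Stat2 and Stat6 share another chromosome. In the RefSeq annotation of GRCm38.p6, Stat5b is at chr11:100780731-100859004, Stat5a at chr11:100859351-100885169 and Stat3 at chr11:100886806-100939594, a stretch of 158864 bases in all. Only 346 bases separate Stat5b from Stat5a and 1636 separate Stat5a from Stat3. Stat6 is at chr10:127642955-127660987 and Stat2 at chr10:128270498-128292853. The kinases lie apart, with Jak1 at chr4:101151974-101265282, Jak2 at chr19:29251803-29313095 and Tyk2 at chr9:21104068-21131393.

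Promoter sequence is shown for Stat3, whose RNA differed most clearly between the groups, and for Stat2, whose promoter holds an interferon-type motif. The sequences are from RefSeq (GRCm38.p6), 5′ to 3′ on the strand of the gene, and end at the annotated gene. That of Stat3 is chr11:100939595-100939790 on the minus strand. That of Stat2 is chr10:128270248-128270497 on the plus strand, with capitals for the motif match.
Stat3: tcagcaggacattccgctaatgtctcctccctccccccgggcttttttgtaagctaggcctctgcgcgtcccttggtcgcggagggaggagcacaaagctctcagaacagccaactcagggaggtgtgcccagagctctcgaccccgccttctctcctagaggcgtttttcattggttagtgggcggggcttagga
Stat2: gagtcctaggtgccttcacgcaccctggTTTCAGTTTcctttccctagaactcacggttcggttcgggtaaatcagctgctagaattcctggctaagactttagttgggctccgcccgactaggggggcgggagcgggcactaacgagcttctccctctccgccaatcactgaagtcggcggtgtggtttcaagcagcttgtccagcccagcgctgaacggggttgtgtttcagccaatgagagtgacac

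Both strands of the 250 bases before each start were searched for the STAT site known as GAS (letters TTCNNNGAA) and for the core of the interferon-response element (letters TTTCNNTTT). The GAS letters were in 0 of the 10 windows of the 8 genes and in 7.02% of all 32851 windows. The interferon-type core was in 2 of the 10 windows and in 9.37% of all. The match in Stat2, TTTCAGTTT, lies 222 to 214 bases before the start. The other, TTTCTGTTT, is in 1 of the 2 windows of Stat5b, at chr11:100822571-100822820 on the minus strand, which lies inside the annotated gene. The window of Socs3 holds a GAS match, TTCTTAGAA, 154 to 146 bases before its start. The motif matches are descriptions of these letters, and no binding was measured.

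Socs3 RNA checked the labels. Its brightest probe set read 9.09, 9.30 and 9.24 (log2) for Cre minus and 7.44, 6.69 and 7.47 for Cre plus, so every Cre plus liver lay lower. All 10 hepatocyte markers examined passed the filter on low values, which asked for a log2 value over 4 on at least 3 arrays, and none of the lymphocyte markers did. Array medians lay between 2.98 and 3.02. Correlations between arrays over the 8554 genes that passed were 0.995 among the controls, from 0.987 to 0.990 among the Cre plus livers and from 0.982 to 0.993 across the groups. Cre plus B correlated with the Cre minus arrays at 0.991 to 0.993 and with the other Cre plus arrays at 0.987 to 0.989, so values are also given without it. The labels do not say that each array is a separate mouse, so the p-values measure only how these samples vary, and that variation may be technical. In whole liver, fewer cells of a type and less RNA per cell cannot be told apart.

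Of the 19 probe sets, 17 passed the filter, and all 8 genes kept at least 1. Values are log2 GCRMA values, and a gene is read from its brightest probe set. None of the 8 genes passed limma's adjusted p under 0.05, nor did any of the 17 probe sets, where 0.0234% of the 8554 genes and 0.0129% of all 15563 probe sets tested passed in either direction. At an unadjusted p under 0.05, 1 of the 8 genes was higher in Cre plus (Stat3, beside 6.62% of all genes) and 1 was lower (Stat6, beside 8.21%). Counted by probe set, 3 of 17 were higher, all of them Stat3's (beside 6.12% of all probe sets), and 1 was lower (beside 7.18%). The median log2 fold change over the 8 genes was -0.08 and that over all genes was -0.0087.

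**Figure D1:**
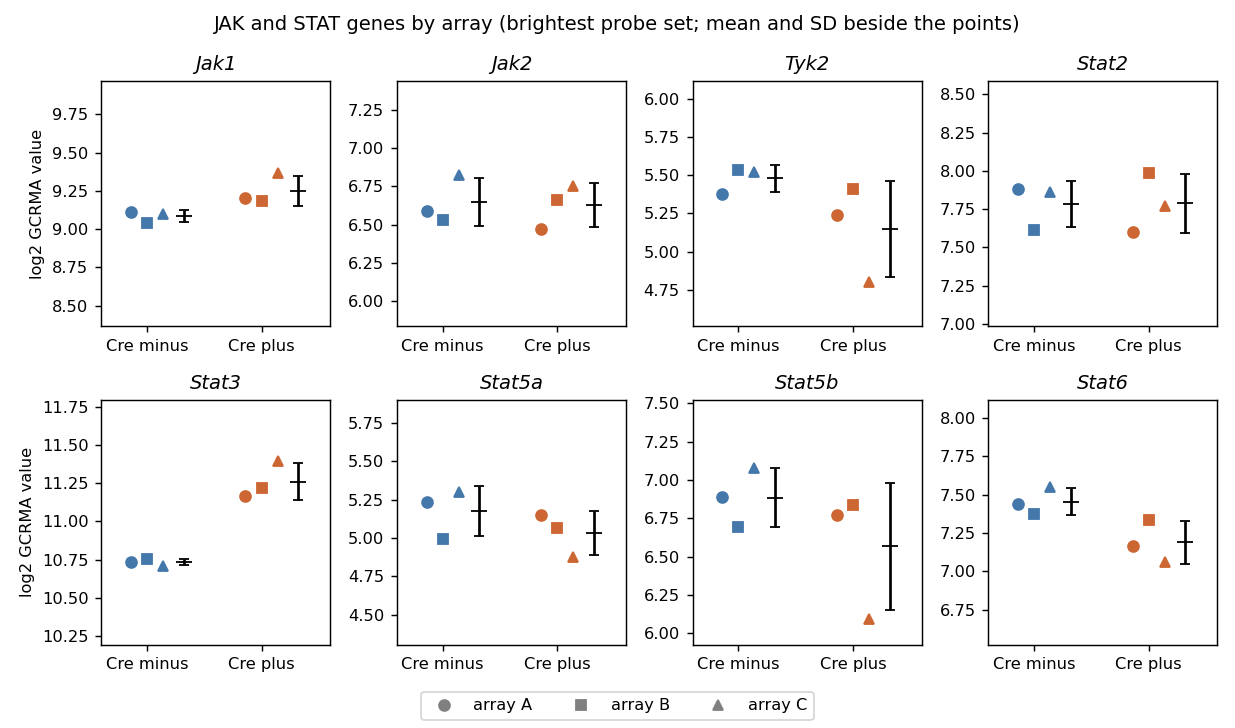
Log2 GCRMA value (vertical axis, the same span of log2 units in each panel) of each gene in the 3 Cre minus and 3 Cre plus arrays, with marker shapes for arrays A, B and C and the mean and SD (n = 3) in black. Stat3 and Jak1 are higher and Stat6 is lower in every Cre plus array than in any Cre minus array, and Cre plus C is the lowest array for Tyk2, Stat5a, Stat5b and Stat6.

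Stat3, the transcription factor of the IL-6 family, had the clearest difference of the 8 genes and was 1.44-fold higher in Cre plus (95% interval 1.26 to 1.64). On its brightest probe set (1426587_a_at) Cre minus read 10.74, 10.75 and 10.71 (log2). Cre plus read 11.16, 11.22 and 11.39. The Cre minus arrays lay close together, and the lowest Cre plus array was 0.41 above the highest Cre minus array. The means were 10.73 ± 0.02 and 11.26 ± 0.12 (SD, n = 3), a log2 fold change of 0.52 ± 0.08 (SE). Limma gave an adjusted p = 0.0918 over all genes, rank 44 of 8554, so the difference did not pass. The exact permutation test, two-sided, gave p = 0.1, the smallest that 3 against 3 can give. Jak1 and Stat6 had the same p, as has any gene whose groups do not overlap. Under a stricter filter (log2 over 6, 6236 genes left) the same fold change had limma's adjusted p = 0.04996 and passed. Under that filter 56 of all genes passed, against 2 of 8554 in the main fit. With no filter limma's adjusted p was 0.189, and with the array letters as a block it was 0.257. Leaving out 1 array gave an adjusted p from 0.0818 (Cre plus B, log2 fold change 0.54) to 0.338 (Cre minus A).

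The other probe sets of Stat3 gave the same direction where they carried signal. On 1460700_at Cre minus read 9.70, 9.59 and 9.44 (log2) and Cre plus read 9.93, 9.84 and 9.99. On the dimmer 1459961_a_at they were 5.64, 5.85 and 6.02 against 6.37, 6.12 and 6.23. The groups do not overlap on either, and the log2 fold changes were 0.34 ± 0.08 and 0.40 ± 0.12, with limma's adjusted p = 0.228 and 0.277 over all probe sets. The remaining one, 1424272_at, lay between 3.46 and 3.49 on all 6 arrays and missed the filter.

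Within each array, the log2 value of each of the other 7 genes was subtracted from that of Stat3. Stat3 minus Stat5b went from 3.85 ± 0.21 in Cre minus to 4.69 ± 0.53 in Cre plus (SD, n = 3), a change of 0.84. The changes were 0.85 against Tyk2, 0.79 against Stat6, 0.67 against Stat5a, 0.54 against Jak2, 0.52 against Stat2 and 0.36 against Jak1. In all 7 the Cre plus arrays lay above every Cre minus array, which largely follows from the gap in Stat3 itself. The exact permutation test, two-sided, gave its smallest possible p = 0.1 for each, and 0.1 after Benjamini-Hochberg adjustment over the 7, so no difference could pass at this number of arrays.

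**Figure D2:**
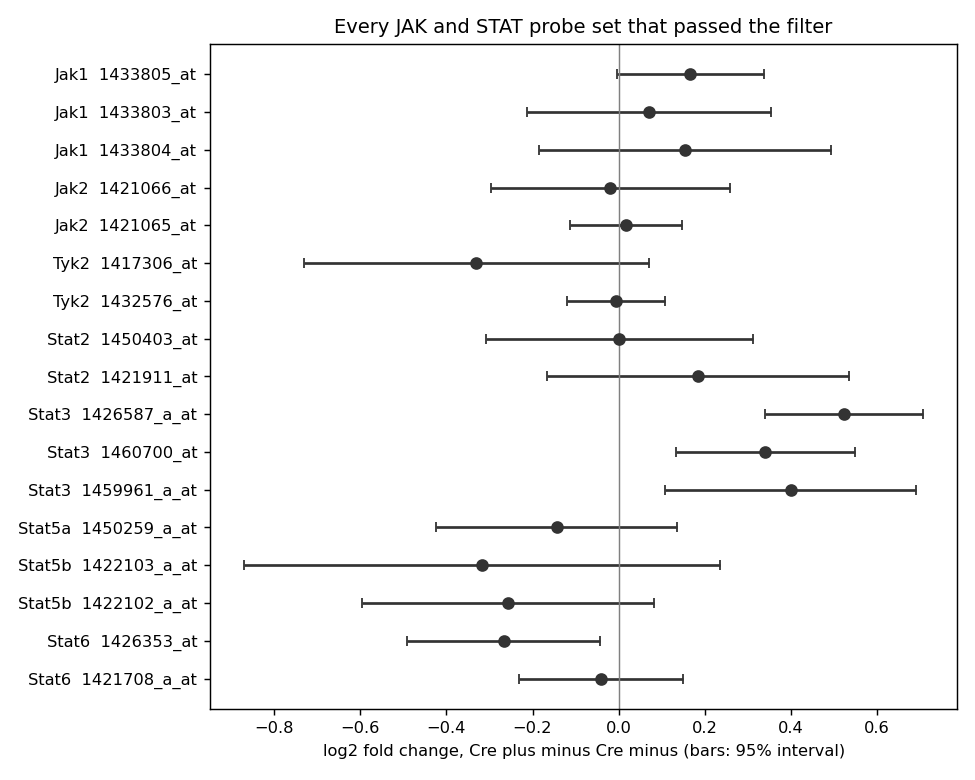
Log2 fold change (horizontal axis, Cre plus less Cre minus, with the 95% interval of the limma fit) of each of the 17 probe sets that passed the filter, named by gene and probe set. The intervals of the 3 Stat3 probe sets lie above 0, from 0.11 at the lowest to 0.71 at the highest, and 1 of 2 Stat6 probe sets lies below 0.

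Stat6, which carries IL-4 and IL-13 signals, had lower values in Cre plus on 1 of its 2 probe sets. On the brighter one (1426353_at) the log2 values were 7.44, 7.37 and 7.55 for Cre minus and 7.17, 7.33 and 7.06 for Cre plus. The groups do not overlap, but Cre plus B lies 0.04 below the lowest Cre minus array. The log2 fold change was -0.27 ± 0.09 (SE), with limma's adjusted p = 0.278, and it did not pass. The other probe set (1421708_a_at) read 6.25, 6.14 and 6.21 against 6.03, 6.23 and 6.22, which overlap, and its fold change was -0.04 ± 0.08 on the log2 scale. The difference was -0.34 without Cre plus B and -0.15 with the mean of both probe sets. Its unadjusted p by limma, 0.0271 in the full set, was 0.0764 with that mean. Leaving out Cre minus A or C gave 0.0607 or 0.0874, and leaving out Cre plus A or C gave 0.0712 or 0.0715. It stayed under 0.05 without Cre minus B (0.0340) and without Cre plus B (0.0092).

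Macrophages and endothelial cells also express Stat6, and most markers of both had lower values in Cre plus. Of 13 Kupffer cell and macrophage markers, 11 were lower and 2 higher, where 46.5% of all genes were higher. At an unadjusted limma p under 0.05, 7 were lower and 1 higher, beside 8.21% and 6.62% of all genes. The higher one was Mpeg1, at 0.42 ± 0.14. The median was -0.31, with summed linear signals of 4727 to 5049 in Cre minus and 4435 to 9844 in Cre plus. The mean of the same list was above the Cre minus mean in Cre plus A, by 0.29, and differed in sign there from the median. Cd14, an endotoxin co-receptor of the same list, read 12.45 and 11.11 in Cre plus A and C, against 4.89 to 7.13 on the other arrays. Tyrobp, a macrophage signalling adaptor, had -0.41 ± 0.07 and the complement component C1qa -0.39 ± 0.07. Of 11 endothelial markers 9 were lower and 2 higher, and at that unadjusted p 4 were lower and 0 higher. Their median was -0.24, with sums of 2947 to 3363 against 2379 to 2903. There the Fc receptor Fcgr2b had -0.54 ± 0.09 and the phosphatase Ptprb -0.27 ± 0.08. Lyve1, 1 of the 2 higher ones, had 0.91 ± 0.56. None of these markers passed over all genes, and their part in the Stat6 values was not tested.

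Jak1, the kinase that pairs with gp130 and with interferon receptors, had slightly higher values in Cre plus on its brightest probe set. The log2 values of 1433805_at stood at 9.11, 9.04 and 9.10 in Cre minus and 9.20, 9.19 and 9.37 in Cre plus. Cre plus C was the highest array, and the groups do not overlap, with a gap of 0.07. The log2 fold change was 0.17 ± 0.07 (SE), with a 95% interval of -0.0040 to 0.34 and limma's adjusted p = 0.346. It was 0.20 with Cre plus B left out and 0.11 with C left out. On the dimmer probe sets 1433804_at and 1433803_at the fold changes were 0.16 ± 0.14 and 0.07 ± 0.11, and the groups overlap on both.

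Counted over the 8 genes, the groups do not overlap with Cre plus higher in 2 (Stat3 and Jak1, beside 9.21% of all genes) and with Cre plus lower in 1 (Stat6, beside 11.9%). Over the 17 probe sets it was 4 higher (beside 8.78% of all probe sets) and 1 lower (beside 11.0%).

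Jak2, the kinase of growth hormone receptor and of several other cytokine receptors, did not differ beyond the spread of the arrays. On 1421066_at Cre minus read 6.59, 6.53 and 6.83 (log2) and Cre plus read 6.47, 6.66 and 6.75, which overlap. The log2 fold change was -0.02 ± 0.11, and its 95% interval of -0.30 to 0.26 holds changes of up to a fold of 0.815 or 1.19. Its other probe set, 1421065_at, lay between 4.69 and 4.79 on all arrays, a near-flat reading.

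Tyk2, the kinase of type I interferon and IL-10 family receptors, was low on the array and had lower values in Cre plus that rest largely on Cre plus C. The log2 values of 1417306_at were 5.38, 5.54 and 5.52 for Cre minus and 5.24, 5.41 and 4.80 for Cre plus. Cre plus B lies inside the Cre minus range, so the groups overlap. The log2 fold change was -0.33 ± 0.16 (limma's adjusted p = 0.406). It was -0.16 with Cre plus C left out and -0.46 with B left out, with limma's adjusted p = 0.520 and 0.206. On 1432576_at all 6 arrays read between 4.38 and 4.40.

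Stat5b, the main STAT of growth hormone in liver, had its lowest value in the same array. The log2 values of 1422103_a_at were 6.89, 6.69 and 7.08 for Cre minus and 6.77, 6.83 and 6.09 for Cre plus. Cre plus A and B lie within the Cre minus range and Cre plus C lies 0.79 below the Cre minus mean. The log2 fold change of -0.32 ± 0.22 (adjusted p = 0.554 by limma) was -0.08 without Cre plus C. The dimmer 1422102_a_at had the same order in Cre plus, at 5.04, 5.31 and 4.78 against 5.35, 5.26 and 5.29.

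Stat5a, the close relative of Stat5b, lay near the filter. The log2 values of 1450259_a_at stood at 5.24, 4.99 and 5.30 in Cre minus and 5.15, 5.07 and 4.88 in Cre plus, where Cre plus C was again lowest. The groups overlap, and the log2 fold change was -0.14 ± 0.11 with a 95% interval of -0.42 to 0.13. Its other probe set, 1421469_a_at, lay between 2.90 and 2.95 and missed the filter. The probe sets of both Stat5 genes are of a kind that can read several transcripts of a gene. So are 1426587_a_at and 1459961_a_at of Stat3 and 1421708_a_at of Stat6. Reads of Stat5a by probes of Stat5b, or the reverse, were not tested.

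Stat2, the partner of IRF9 in the interferon-activated complex, had nearly equal means, with a different order of arrays on each side. On 1450403_at Cre minus read 7.88, 7.61 and 7.86 (log2) and Cre plus read 7.60, 7.99 and 7.77. The log2 fold change was 0.0013 ± 0.13, with a 95% interval of -0.31 to 0.31. On 1421911_at the values were 7.08, 7.23 and 7.09 against 7.16, 7.63 and 7.17, with a difference of 0.18 ± 0.14. Cre plus B was the highest array on both probe sets, and the groups overlap on both.

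Across the 8 genes, the Cre plus arrays departed from the Cre minus mean by unequal amounts. Cre plus C departed most in 6 of them, by 0.66 in Stat3, 0.28 in Jak1, -0.79 in Stat5b, -0.68 in Tyk2, -0.39 in Stat6 and -0.30 in Stat5a. In the same 6 genes Cre plus B departed by 0.48, 0.10, -0.05, -0.07, -0.12 and -0.11, and Cre plus A by 0.43, 0.12, -0.11, -0.24, -0.29 and -0.02. The gap between the groups was 0.41 in Stat3, 0.07 in Jak1 and 0.04 in Stat6, and the ranges of the other 5 genes overlap.

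**Figure D3:**
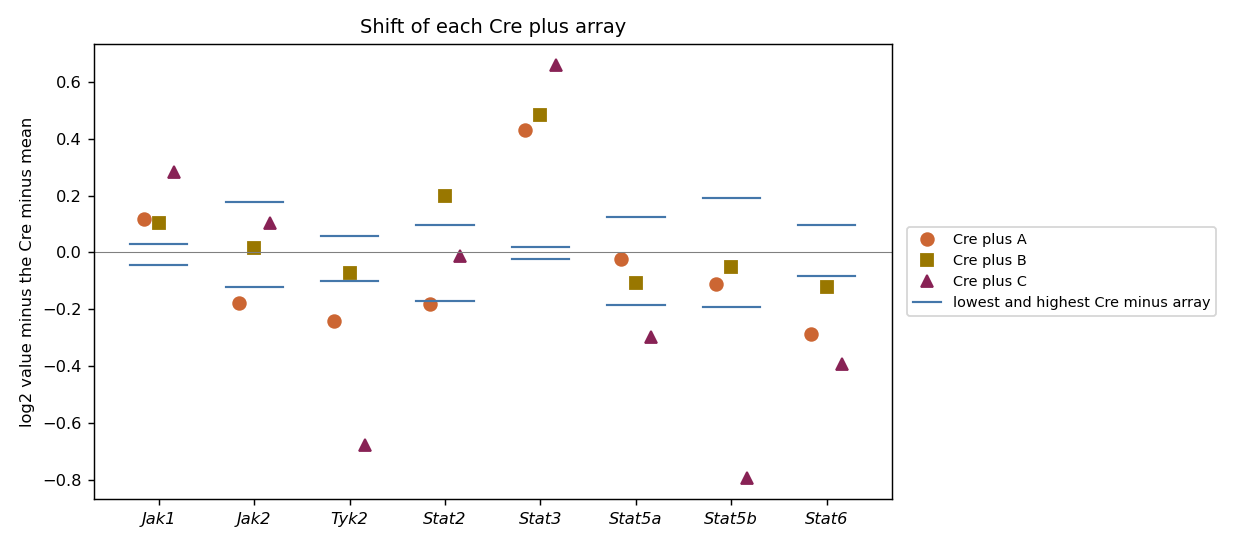
Log2 value of each Cre plus array minus the Cre minus mean (vertical axis) for the 8 genes, with blue lines at the lowest and highest Cre minus array. The 3 Stat3 points lie between 0.43 and 0.66, while Tyk2 and Stat5b have Cre plus C far below the other arrays, at -0.68 and -0.79.

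The 5 genes outside the group whose values followed Stat3 most closely over the 6 arrays, by Pearson's r, were Slc13a5 (0.998), Slc39a14 (0.995), Lpgat1 (0.988), Arfgap3 (0.988) and Il1r1 (0.986). The arrays form 2 separate groups in each of these genes, so r describes the group difference as well as the order of arrays, and it carries no test. Slc13a5, the citrate transporter of hepatocytes, had log2 values of 4.49, 4.58 and 4.48 in Cre minus and 6.12, 6.21 and 6.76 in Cre plus. Slc39a14, a zinc and iron importer, had 9.94, 9.94 and 9.78 against 10.58, 10.64 and 10.87. In both, as in Stat3, Cre plus C was highest and Cre plus A lowest of the Cre plus arrays. Il1r1, the IL-1 receptor, had a log2 fold change of 0.82 ± 0.14, and none of the 5 passed, with adjusted p between 0.0732 and 0.120 by limma.

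Jak3 and Stat4, further genes of these families that serve lymphocytes, were read by probe sets that missed the filter. Jak3 lay between 3.89 and 4.03 and Stat4 between 2.51 and 2.56 on all arrays. The lymphocyte markers examined had mean log2 values between 1.52 and 3.78.

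For the gene lists that follow, the shares over all genes were 46.5% higher in Cre plus by any amount, 6.62% higher at an unadjusted limma p under 0.05 and 8.21% lower at it. Several genes stand on more than 1 list, so the counts are not separate: Osmr, Il6st, Il4ra, Socs2, Cish, Usp18 and Irf9.

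Receptors upstream of the JAKs came first. Of 14 kept, 12 were higher and 2 lower, with a median log2 fold change of 0.09 beside -0.0087 over all genes, 0 past the adjusted threshold, and 3 higher and 0 lower at an unadjusted limma p under 0.05. Osmr, the oncostatin M receptor chain that signals through JAK1 and STAT3, had log2 values of 6.87, 6.66 and 6.74 in Cre minus and 7.46, 8.01 and 7.97 in Cre plus. Its fold change was 1.05 ± 0.16 on the log2 scale, with limma's adjusted p = 0.0986. Il13ra1, a receptor chain for IL-13 that uses STAT6, had 0.44 ± 0.12. Of the ligands of such receptors 1 was kept, the IL-6 family member Ctf1, at -0.06 ± 0.06. Without Cre plus A, 10 receptors were higher and 4 lower, with a median of 0.14.

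Brakes on the pathway were divided. Of 17 kept, 9 were higher and 8 lower, with a median of 0.06, 0 past the adjusted threshold, and 2 higher and 1 lower at an unadjusted limma p under 0.05 (6.62% and 8.21% of all genes). The lower one was Socs3 itself. The higher ones were both tyrosine phosphatases that act on JAKs and STATs, Ptpn1 at 0.72 ± 0.11 and Ptpn2 at 0.73 ± 0.13. The median over the brakes was 0.0026 without Cre plus A and 0.16 without B, where 1 passed, beside 13 of all 8542 genes. Cofactors and adaptors had 7 of 10 higher and 3 lower, a median of 0.08 (0.12 without Cre plus B) and 0 past the threshold. The STAT3 adaptor Stap2 had 0.38 ± 0.07 and the STAT-binding protein Nmi 0.35 ± 0.14, and these 2 were the ones at an unadjusted p under 0.05.

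Genes that respond to each STAT were read beside the STAT itself. Of 29 STAT3-responsive genes of liver, 26 were higher and 3 lower, with a median of 0.16, and 1 passed limma's adjusted threshold, the metalloreductase Steap4 (1.25 ± 0.09, adjusted p = 0.0417). By unadjusted p under 0.05 there were 10 higher and 1 lower (beside 6.62% and 8.21% of all genes), and Cebpb, an acute phase transcription factor, had 0.51 ± 0.07. The mean shift of the list was 0.44, 0.30 and 0.34 for the Cre plus arrays, while that of Stat3 was 0.43, 0.48 and 0.66. Of the 29 genes, 8 read over 14 on every array, near the top of the scale, and all 8 were higher by only 0.02 to 0.16, among them the serum amyloid gene Saa1 and the fibrinogen gene Fga. Without Cre plus A, 0 of the 29 passed, and the median was 0.15. Without Cre plus B, where 13 of all 8542 genes passed, 1 of the 29 did, and the median was 0.24.

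Growth hormone and STAT5-responsive genes were split, with 6 of 12 higher and 6 lower, a median of 0.0045 and 0 past the threshold. By unadjusted p under 0.05 there were 0 higher and 3 lower (beside 6.62% and 8.21% of all genes). Elovl3, a male-biased fatty acid elongase, read 10.78, 10.63 and 10.77 in Cre minus and 9.73, 10.15 and 8.95 in Cre plus, a log2 fold change of -1.11 ± 0.30. Igfals, which encodes the carrier of circulating IGF-1 complexes, had -0.90 ± 0.32, with Cre plus C lowest at 5.43. Cre plus C was the lowest of all arrays in 3 of the 12 genes (Elovl3, Igfals and Bcl6) and the highest in 2 (Socs2 and Slco1a1). The mean shift of the list was -0.23, 0.18 and -0.16 for the Cre plus arrays, while the 0.0045 is a median of group fold changes. The order of these shifts differs from the -0.11, -0.05 and -0.79 of Stat5b. Its median was 0.08 with Cre plus A left out and -0.09 with B left out.

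Interferon genes driven by STAT2 complexes had 14 of 18 members higher and 4 lower, with a median of 0.16, 0 past the adjusted threshold, and 2 higher and 0 lower at an unadjusted limma p under 0.05 (beside 6.62% and 8.21% of all genes). Zbp1, a nucleic acid sensor, had 0.95 ± 0.20, and Xaf1, an interferon-induced promoter of apoptosis, 0.52 ± 0.16. The mean shift was 0.56, 0.09 and 0.04 for the Cre plus arrays. On its brightest probe set Stat2 itself was low in Cre plus A, at -0.18, and high in Cre plus B, at 0.20. On 1421911_at Cre plus A was not low, at 7.16 within the Cre minus range of 7.08 to 7.23. Without Cre plus A the list median was 0.04, with 10 higher and 8 lower, and without Cre plus B it was 0.24. Cre plus A was also highest in the 2 neutrophil markers kept, of 9 with a probe set. S100a8 read 10.10 there against 8.19 to 8.54 on the other arrays. The part of such cells in these values was not tested. Of the STAT6-responsive genes 2 were kept, the mannose receptor Mrc1 at -0.21 ± 0.09 and the IL-4 receptor chain Il4ra at 0.15 ± 0.21.

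**Figure D4:**
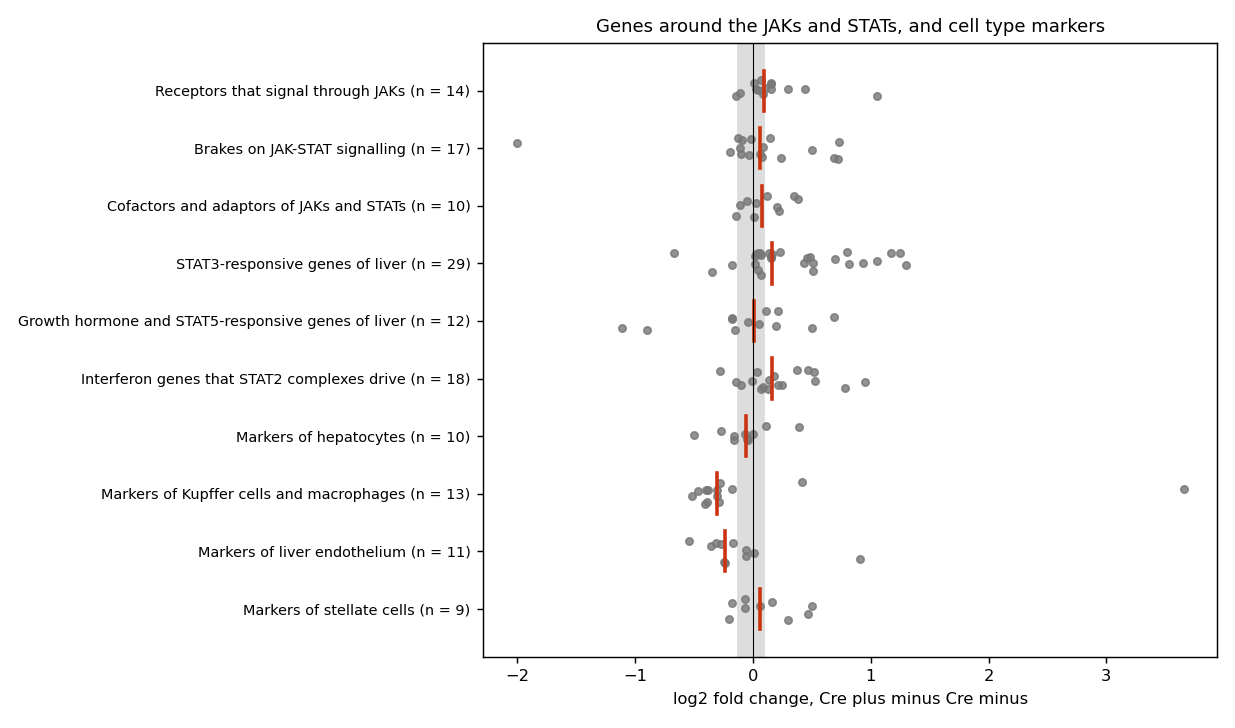
Log2 fold change (horizontal axis, Cre plus less Cre minus) of each kept gene in the lists with at least 5 kept genes, 1 point per gene, with a red bar at the list median and a grey band from -0.12 to 0.10 that holds the middle 50% of all 8554 genes. The list of STAT3-responsive genes reaches from Ccnd1 at -0.67 to A2m at 1.30, and Kupffer cell and endothelial markers have medians of -0.31 and -0.24.

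Markers of the remaining cell types were mixed. Hepatocyte markers had 3 of 10 higher and 7 lower, a median of -0.06 (-0.03 without Cre plus A) and summed linear signals of 207546 to 213854 in Cre minus and 191078 to 207647 in Cre plus. The secreted protein fetuin-A (Ahsg) had -0.27 ± 0.08 and the urea cycle enzyme Cps1 -0.50 ± 0.18. Stellate cell markers had 5 of 9 higher and 4 lower, a median of 0.06 (-0.02 without Cre plus A), and sums of 1132 to 1251 against 1344 to 1450. The pericyte regulator Rgs5 had 0.50 ± 0.11 and the growth factor receptor Pdgfra 0.47 ± 0.16. Of the neutrophil markers 2 were kept, S100a8 at 0.49 ± 0.49 and S100a9 at 0.38 ± 0.41, and of the bile duct markers 1, Sox9 at 0.38 ± 0.23. None of these passed over all genes.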

How the data were processed

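Total RNA from whole liver was hybridized to Affymetrix mouse expression arrays. The authors deposited log2 values. The submitters' processing notes name GCRMA, whose version was not stated there. It corrects for background using the letters of each probe, so low values hold little signal and their fold changes are uncertain. Arrays have no read depth, and their number limits the precision. Symbols came from the platform annotation, updated by Entrez ID to RefSeq GRCm38.p6 (0 changed). The 64 control probe sets of 45101 were left out. Probe sets over log2 4 on at least 3 of 6 arrays (15563) were kept, and a gene was read from its brightest single-symbol probe set (8554 genes). The groups were compared by limma 3.58.1 in R 4.3.3 (lmFit, eBayes, no block, two-sided), with Benjamini-Hochberg adjustment over all genes, or over all probe sets where single probe sets are given. Stat3 against each other gene was tested with an exact permutation test. Named genes are all 8 members, Socs3, the 2 genes of each list with the smallest p, any past the threshold, and the 5 most correlated with Stat3. Other genes from the lists, and those on more than 1 list, were named after their values were seen. Among them are Ccnd1, A2m, Cd14, Mpeg1, Lyve1, Ptpn2, Saa1, Fga, Bcl6, Socs2 and Slco1a1. The members and lists were chosen with earlier results of these data known. Motifs were searched in RefSeq promoter windows, which all 8 genes had. Alternatives were other scaling, filters, probe set rules, a prior with a trend, array weights, a replicate block and each array left out.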

Additional observations from a re-analysis of the deposited data

How the results depend on the processing

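The 8 log2 fold changes were recomputed under up to 15 alternatives. Not all of these could move a fold change. Under the other filters, the prior with a trend, the replicate block and the rule that dropped some kinds of probe set, each gene kept the same probe set and group means. Those alternatives left the fold change of every gene they kept unchanged and bear only on its p-value. The counts below include them. Stat3 stayed higher in all 15, from 0.42 to 0.57, with limma's adjusted p between 0.04996 and 0.338, and it was the 1 member past the threshold with the filter at log2 over 6. Jak1 stayed higher in 15 of 15 (0.11 to 0.20). Stat6 (-0.34 to -0.15) and Stat5b (-0.45 to -0.08) stayed lower in 15 of 15, and Tyk2 (-0.46 to -0.16) and Stat5a (-0.24 to -0.07) in all 14 that kept them. Near 0, Stat2 became -0.0067 with quantile normalization and -0.037 with array weights, and ranged from -0.098 to 0.094 with 1 array left out. Jak2 ranged from -0.081 to 0.070 with 1 array left out. The members at an unadjusted p under 0.05, 2 in the report, were 1 (Stat3) with the mean of all kept probe sets, 3 (Jak1 added) with a common median, with quantile normalization and with no filter, and from 1 to 4 with 1 array left out. The 4, without Cre plus B, were Jak1, Tyk2, Stat3 and Stat6. The cause of these moves was not tested.

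With the replicate block the count at an unadjusted p under 0.05 was 1 (Stat3), and Stat3 kept 0.52 with limma's adjusted p = 0.257. Deviations from the group means correlated between arrays of the same letter at -0.15, -0.10 and 0.02 for A, B and C over all genes. With so few arrays per group, these values cannot decide whether arrays of the same letter were paired. No probe set of the 8 genes passed the adjusted threshold under any alternative that tested probe sets. Of all genes 2 passed, against 0 with no filter, 56 at log2 over 6, 0 with the block, and 0 to 13 with 1 array left out. Tyk2 and Stat5a had no value at log2 over 6. The list values with Cre plus A or B left out were added after the data were seen.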
